A study of Mus musculus with 12 samples.

Results

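The genes described here code for the chondroitin sulfate proteoglycans and tenascins of the brain matrix and for 2 Adamts proteases that cut them. The 10 members, Bcan, Ncan, Vcan, Acan, Cspg4, Cspg5, Tnc, Tnr, Adamts1 and Adamts4, were chosen by name, and each matched 1 of the 48709 genes in the files. RNA was sequenced from mouse brain cells selected by ACSA-2, an astrocyte surface antigen, 24 h after tMCAO, a stroke model that closes the middle cerebral artery on 1 side and then restores its flow. Each of 6 mice gave 1 library from the occluded (ipsilateral) and 1 from the opposite (contralateral) hemisphere, which makes 4 groups of 3 libraries. All mice were C57BL/6, 90 to 120 days old, and carried Gfap-CreERT2+/- with a homozygous floxed gene, so that Cre is made in Gfap-expressing cells and acts after tamoxifen. Mice 295, 298 and 300 received tamoxifen and are labelled as astrocyte knockouts (KO here). Mice 296, 297 and 474 received corn oil and are labelled wild-type (WT here), although they carry the same alleles. The drug and the deletion therefore cannot be told apart, and cells without Gfap expression keep the gene. Every KO and WT direction below is between libraries so labelled.

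Totals were 11187723 to 15780600 counts per library, and CPM below are counts over library size, scaled between libraries. Astrocyte markers (10 genes, among them Slc1a2, Aqp4, Gja1 and Atp1b2, which codes for the ACSA-2 antigen) were detected in every library, 10 of 10. Their summed level was 11200 to 15920 TPM (a share of all transcripts, scaled for gene length) in KO ipsilateral and 14710 to 17200 TPM in KO contralateral libraries. It was 6152 to 8100 TPM in WT ipsilateral and 9574 to 13070 TPM in WT contralateral libraries. Gfap, an intermediate filament gene of reactive astrocytes in the same list, went against the sum and was higher ipsilaterally in 6 of 6 mice, at 1707 to 2765 TPM in KO ipsilateral against 393.5 to 1145 TPM in KO contralateral libraries, and at 1266 to 1895 TPM in WT ipsilateral against 770.6 to 1115 TPM in WT contralateral libraries. Other cell types were present as well. The 10 microglial markers summed to 498 to 4209 TPM in KO ipsilateral and 1214 to 2117 TPM in KO contralateral libraries, and to 1592 to 2479 TPM in WT ipsilateral and 693.9 to 942.4 TPM in WT contralateral libraries. The KO ipsilateral library of mouse 300 stood apart, with the 498 TPM of microglial markers and 3962 TPM of the myelin gene Mbp (1208 and 744.6 TPM in the other KO ipsilateral libraries). Its mitochondrial counts were 1.83%, near the 1.68% of the KO ipsilateral library of mouse 298, against 0.951% in that of mouse 295. The 10 oligodendrocyte markers summed to 7447 to 11230, 4593 to 6821, 12020 to 18710 and 13170 to 15020 TPM in KO ipsilateral, KO contralateral, WT ipsilateral and WT contralateral libraries. The 10 mural cell markers summed to 1112 to 1732, 1481 to 1854, 750.6 to 1078 and 1316 to 1495 TPM in the same order. The 10 oligodendrocyte precursor markers, of which Olig1 was the highest, summed to 581.2 to 659.6, 417.1 to 698.7, 625.5 to 831.5 and 668.3 to 878.1 TPM in that order. No gene of these lists was at 0 in any library. A difference in bulk RNA can be fewer cells of a type or less RNA per cell, which cannot be told apart here. Mouse 296 differed from the other mice in Xist, with 4 and 8 counts in its ipsilateral and contralateral libraries against at least 9140 elsewhere. Its 9 neutrophil markers summed to 553.4 and 224.1 TPM in the same order, against at most 127.8 TPM elsewhere.

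**Figure D1:**
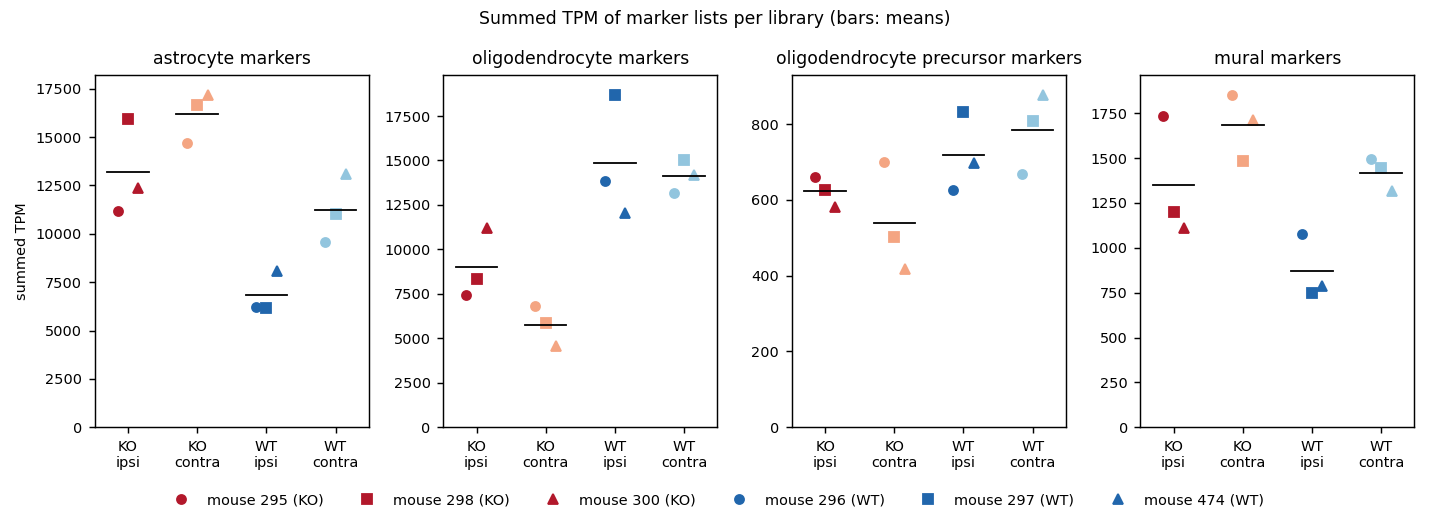
Summed TPM of the marker genes of 4 cell types (vertical axes) in each library, by group; symbols are mice, bars are means. Astrocyte markers were lowest in WT ipsilateral libraries, at 6152 to 8100 TPM, and oligodendrocyte markers were lower in all KO libraries than in all WT libraries.

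In the brain matrix, lecticans (brevican, neurocan, versican and aggrecan) bind hyaluronan at their N-terminal end and tenascins at their C-terminal end. Together these molecules form a lattice between cells, and around some neurons a denser perineuronal net. After injury, astrocytes and oligodendrocyte precursors add chondroitin sulfate proteoglycans to the glial scar, which are known to inhibit axon growth. Adamts1 and Adamts4 are secreted metalloproteases, known as aggrecanases, that cut lecticans in their core protein.

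Promoter windows of 250 bases before to 50 bases after the annotated start were taken from RefSeq (GRCm38.p6, the assembly of mm10), which held 8 of the 10 members. The windows of Tnc, Adamts1 and Vcan, which with Adamts4 (no window in the table) were higher ipsilaterally, and of Bcan and Ncan, 2 lecticans that were higher in KO than in WT ipsilaterally, are given 5′ to 3′ on the coding strand. They lie at chr4:64046966-64047265 (Tnc, minus strand), chr16:85803064-85803363 (Adamts1, minus), chr13:89742463-89742762 (Vcan, minus), chr3:88000307-88000606 (Bcan, minus) and chr8:70120795-70121094 (Ncan, minus). Capitals mark motifs searched on both strands. The GC box was searched as GGGCGG. For the TATA box the letters were TATAAA. The core of the hypoxia response element was taken as ACGTG.
Tnc: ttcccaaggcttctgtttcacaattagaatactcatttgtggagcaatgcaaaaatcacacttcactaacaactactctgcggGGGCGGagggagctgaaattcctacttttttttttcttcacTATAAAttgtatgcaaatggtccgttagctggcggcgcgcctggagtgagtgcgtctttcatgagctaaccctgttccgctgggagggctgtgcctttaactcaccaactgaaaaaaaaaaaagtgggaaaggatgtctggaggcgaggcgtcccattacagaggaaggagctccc
Adamts1: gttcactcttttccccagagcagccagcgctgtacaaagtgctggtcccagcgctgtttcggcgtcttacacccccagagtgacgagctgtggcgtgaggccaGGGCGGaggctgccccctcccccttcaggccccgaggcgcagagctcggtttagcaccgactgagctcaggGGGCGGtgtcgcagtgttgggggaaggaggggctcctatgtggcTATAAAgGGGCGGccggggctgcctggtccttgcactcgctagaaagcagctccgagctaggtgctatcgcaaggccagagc
Vcan: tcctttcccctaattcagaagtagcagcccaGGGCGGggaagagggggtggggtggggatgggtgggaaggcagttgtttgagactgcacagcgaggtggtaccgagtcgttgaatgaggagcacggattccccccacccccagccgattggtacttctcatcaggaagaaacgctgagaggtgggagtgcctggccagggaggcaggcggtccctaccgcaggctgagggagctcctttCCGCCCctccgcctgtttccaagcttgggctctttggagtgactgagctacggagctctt
Bcan: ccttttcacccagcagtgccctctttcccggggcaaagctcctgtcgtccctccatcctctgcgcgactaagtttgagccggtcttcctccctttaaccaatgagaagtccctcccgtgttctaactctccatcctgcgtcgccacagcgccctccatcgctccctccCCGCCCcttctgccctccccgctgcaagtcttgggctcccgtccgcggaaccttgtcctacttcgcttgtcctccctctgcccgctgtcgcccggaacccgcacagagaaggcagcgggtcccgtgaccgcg
Ncan: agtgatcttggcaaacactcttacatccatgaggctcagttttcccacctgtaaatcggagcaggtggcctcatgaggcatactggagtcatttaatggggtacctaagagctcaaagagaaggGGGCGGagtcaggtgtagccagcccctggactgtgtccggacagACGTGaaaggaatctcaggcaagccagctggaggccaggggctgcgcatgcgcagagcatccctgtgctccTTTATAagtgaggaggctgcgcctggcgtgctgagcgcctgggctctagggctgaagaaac
The Adamts1 window held 3 GC boxes and a TATA box that begins at -32, close to its last GC box at -25. The Tnc window held 1 GC box and a TATAAA at -126, and RefSeq lists a further start of Tnc downstream of the one shown. The Vcan window held 2 GC boxes, Bcan 1, and Ncan 1 together with ACGTG at -82. Ncan also held TATAAA at -11, but on the opposite strand (TTTATA as printed). Over all 32851 promoter windows 35.7% held a GC box, 13.6% a TATA box and 19.6% ACGTG. The AP-1 site TGANTCA (7.81% of all windows), the STAT site TTCNNNGAA (8.3%) and the NF-kB site GGGANTTCC (1.68%) were in none of the windows of the 8 members. A match is only a match of letters, and its absence concerns only these windows.

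The levels of the members were compared in TPM, since this scale accounts for gene length. Bcan (ENSMUSG00000004892, chromosome 3, 87987531 to 88000230, minus strand, mm10) was the most abundant, with 343.7 to 1856 TPM over the 12 libraries, and its mean exceeded that of 99.4% of the genes tested. Adamts1 (ENSMUSG00000022893, chromosome 16, 85793827 to 85803113, minus) followed with 111.2 to 632.0 TPM, Cspg5 (ENSMUSG00000032482, chromosome 9, 110243783 to 110262576, plus) with 49.1 to 338.0 TPM and Ncan (ENSMUSG00000002341, chromosome 8, 70093085 to 70120873, minus) with 57.6 to 240.2 TPM. Adamts4 (ENSMUSG00000006403, chromosome 1, 171250421 to 171260637, plus) had 25.7 to 208.5 TPM and Tnc (ENSMUSG00000028364, chromosome 4, 63959785 to 64047015, minus) 2.80 to 132.8 TPM. Cspg4 (ENSMUSG00000032911, chromosome 9, 56865033 to 56899870, plus) had 10.03 to 27.2 TPM, Tnr (ENSMUSG00000015829, chromosome 1, 159523769 to 159931729, plus) 3.599 to 18.6 TPM and Vcan (ENSMUSG00000021614, chromosome 13, 89655312 to 89742509, minus) 3.76 to 17.9 TPM. Acan (ENSMUSG00000030607, chromosome 7, 79053483 to 79115099, plus) had 1 to 20 counts per library, at most 0.69 TPM, and was the only member with too few counts to be tested. With the exon lengths of GENCODE M21, the counts of Cspg4 were 0.675 of the reads that its TPM implies in every library, whereas the other members were at 0.999 to 1. The TPM level of Cspg4 is therefore uncertain. Its mean of 17.31 TPM lay between those of Tnc (40.59 TPM) and Tnr (9.02 TPM).

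The order changed with the occlusion. In WT ipsilateral libraries Adamts1 had the highest mean, 505 ± 111 TPM against 389 ± 53.7 TPM for Bcan, with overlapping libraries. In WT contralateral libraries Bcan led with 1252 ± 264 TPM, apart from Cspg5 (194 ± 81.7 TPM), while Cspg5, Adamts1 and Ncan each overlapped the next in the order, which ended with Adamts4 apart from Cspg4. In KO ipsilateral libraries Bcan led with 928 ± 251 TPM and Adamts1 followed with 318 ± 41.5 TPM. In KO contralateral libraries Bcan (1750 ± 124 TPM), Cspg5 (316 ± 28.3), Ncan (213 ± 20.8) and Adamts1 (121 ± 11.3) did not overlap. Tnc had the highest fold change between the sides, standing at 77.0 ± 55.4 TPM in KO ipsilateral and 74.8 ± 42.8 TPM in WT ipsilateral libraries, against 7.26 ± 3.01 and 3.31 ± 0.51 TPM contralaterally.

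**Figure D2:**
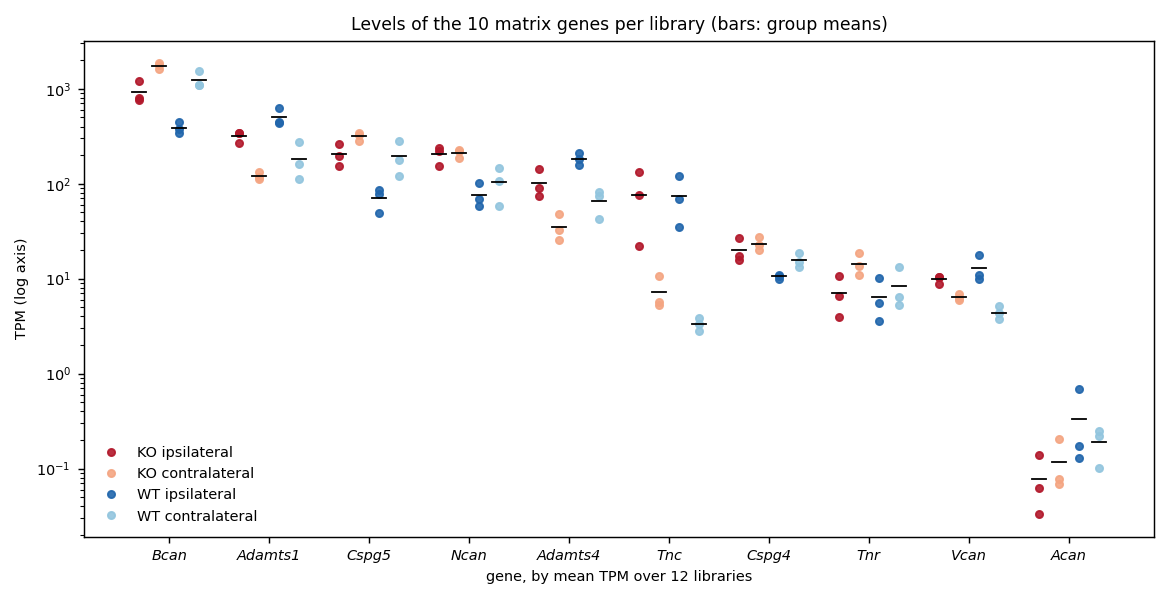
TPM of each member (log axis) in the 12 libraries, genes ordered by their mean; colours are groups and bars are group means. Bcan stood highest in 3 of the 4 groups, Adamts1 had the highest mean in WT ipsilateral libraries, and Acan was at 0.69 TPM or less in every library.

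The first comparison asks how the occlusion changed these genes in WT mice, and the second asks the same in KO mice. In WT mice the ipsilateral libraries had more Tnc, Vcan, Adamts1 and Adamts4 and less Bcan, Cspg5 and Cspg4 than the contralateral ones. Of the 9 members tested, 4 rose and 3 fell in edgeR's quasi-likelihood test at an adjusted p of 0.05, with a median log2 fold change of -0.42. Over all 15571 genes tested 19.2% passed, 9.61% higher and 9.54% lower, and the median was -0.06. In KO mice Tnc, Adamts1 and Adamts4 rose and none of the 9 fell, where 6.29% of all genes tested passed, 5.45% being higher and 0.841% lower (shares of all genes tested). The median was 0.10 for the members and -0.01 for all genes. Without mouse 297 the WT calls were 4 members, and without mice 295 or 300, or the contralateral library of mice 298 or 300, the KO calls were 0 in edgeR. The libraries of the 2 sides did not overlap for 7 of 9 members in WT mice, against 34% of all genes (4 higher against 17.3%, 3 lower against 16.6%), and for 6 of 9 in KO mice, against 38.8% (4 higher against 18.6%, 2 lower against 20.2%). With the mouse as a block, which compares the hemispheres of each animal, 5 members passed in KO mice, Vcan higher and Bcan lower in addition. Averaged over both genotypes 4 members rose and 2 fell, where 33.2% of genes passed (17.1% higher, 16.1% lower), and these 6 calls held in each of 18 leave-one-out fits, each without 1 library or 1 mouse.

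**Figure D3:**
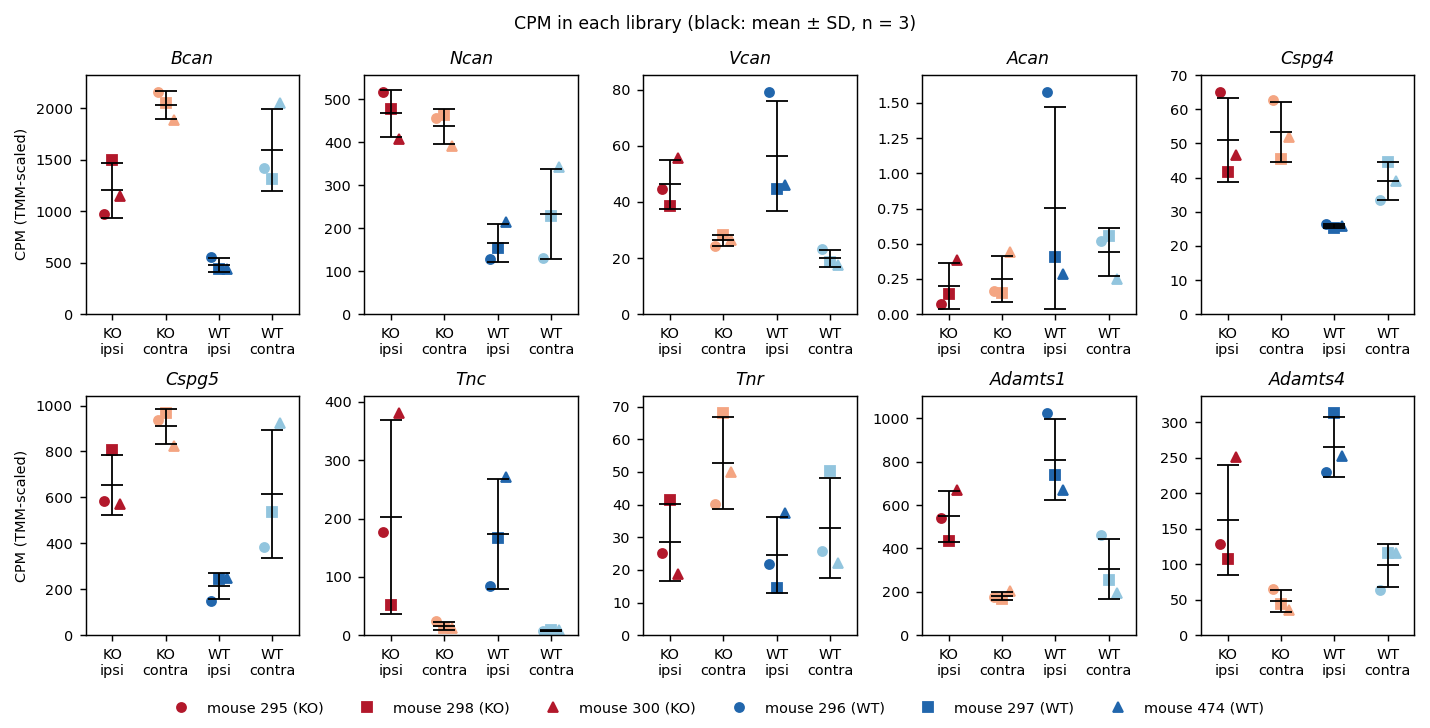
CPM of each member in the 12 libraries, with the mean ± SD of 3 libraries in black; symbols are mice and colours are groups. Ipsilateral libraries stand above contralateral ones of the same genotype for Tnc, Vcan, Adamts1 and Adamts4, and below them for Bcan and Cspg5. The KO ipsilateral libraries stand above the WT ipsilateral ones for Bcan, Ncan, Cspg4 and Cspg5.

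Bcan codes for brevican, a lectican made by astrocytes and oligodendrocyte precursors. In mice 295, 298 and 300 (KO) it had 971.1, 1495 and 1148 CPM ipsilaterally, against 2156, 2052 and 1889 CPM contralaterally. The WT ipsilateral libraries of mice 296, 297 and 474 had 555.6, 434.7 and 442.4 CPM, against 1421, 1316 and 2056 CPM in the contralateral ones. The occluded side was lower in 6 of 6 mice, with no overlap within either genotype. Bcan fell by 1.74 ± 0.22 on the log2 scale in WT mice (edgeR adjusted p = 0.000964), 3.35-fold, and this call held in all 9 leave-one-out fits. In KO mice the difference was -0.75 ± 0.21 (edgeR adjusted p = 0.0558, and 0.0357 with the mouse as a block). Between the ipsilateral groups Bcan rose by 1.34 ± 0.21 in KO libraries (edgeR adjusted p = 0.00864), 2.52-fold, which was lost without mouse 297 (0.0727), its ipsilateral library (0.0564) or mouse 298 (0.0532). Per 1000 TPM of summed astrocyte markers, Bcan was at 61.9 to 76.4 TPM in KO ipsilateral and 46.4 to 71.9 TPM in WT ipsilateral libraries, which overlap. On that scale both ipsilateral groups stayed below the contralateral ones, at 93.8 to 126.0 TPM in KO and 98.9 to 119.0 TPM in WT. The contralateral groups differed by 0.35 ± 0.21 between KO and WT (edgeR adjusted p = 0.469).

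Ncan codes for neurocan, a lectican that is abundant in the developing brain and is known to return in astrocytes after injury. It had 516.4, 478.1 and 406.8 CPM in KO ipsilateral and 456.4, 463.3 and 390.9 CPM in KO contralateral libraries of mice 295, 298 and 300. WT ipsilateral libraries of mice 296, 297 and 474 had 128.9, 153.0 and 214.7 CPM and WT contralateral ones 130.7, 227.6 and 341.7 CPM. All KO libraries stood above all WT libraries, and the sides overlapped within each genotype. Ncan was 1.496 ± 0.295 higher on the log2 scale in KO than in WT ipsilateral libraries (edgeR adjusted p = 0.0155), 2.82-fold. This call was lost in 7 of 12 leave-one-out fits, namely without mice 295, 297, 298 or 300, or the ipsilateral libraries of mice 296, 297 or 298, where the edgeR adjusted p was 0.0551 to 0.117. Contralaterally the difference was 0.90 ± 0.29 (edgeR adjusted p = 0.18, and 0.0264 without mouse 474). The side difference was 0.10 ± 0.29 in KO mice (edgeR adjusted p = 0.858) and -0.495 ± 0.29 in WT mice (0.251, and 0.0333 without the contralateral library of mouse 296). Per 1000 TPM of astrocyte markers the ipsilateral values were 12.4 to 21.4 TPM in KO and 9.42 to 12.7 TPM in WT, which overlap.

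Vcan codes for versican, a large lectican of oligodendrocyte precursors, vessels and the injured matrix. KO ipsilateral libraries had 44.6, 38.5 and 55.8 CPM and KO contralateral ones 24.5, 28.3 and 26.3 CPM. WT ipsilateral libraries had 79.1, 44.5 and 46.0 CPM and WT contralateral ones 23.3, 18.6 and 17.7 CPM. The sides did not overlap in either genotype, and Vcan was higher on the occluded side in 6 of 6 mice. It rose by 1.51 ± 0.23 on the log2 scale in WT mice (edgeR adjusted p = 0.00205), 2.85-fold, a call that held in all 9 leave-one-out fits. In KO mice the difference was 0.81 ± 0.23 (edgeR adjusted p = 0.0537, and 0.0162 with the mouse as a block). KO and WT differed by -0.29 ± 0.22 ipsilaterally (edgeR adjusted p = 0.492) and by 0.41 ± 0.23 contralaterally (0.433). Relative to 1000 TPM of astrocyte markers Vcan was at 0.553 to 0.921 TPM in KO ipsilateral and 1.36 to 2.88 TPM in WT ipsilateral libraries, without overlap. Contralaterally it was at 0.368 to 0.414 TPM in KO and 0.288 to 0.534 TPM in WT, which overlap. Acan, which codes for aggrecan, the main lectican of perineuronal nets, had 1, 2 and 4 counts in KO ipsilateral, 2, 2 and 7 in KO contralateral, 20, 5 and 4 in WT ipsilateral and 6, 7 and 3 in WT contralateral libraries.

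Cspg5 codes for neuroglycan C, a transmembrane proteoglycan of neurons and glia. It had 585.4, 806.7 and 573.3 CPM in KO ipsilateral and 938.6, 965.9 and 824.4 CPM in KO contralateral libraries. WT ipsilateral libraries had 150.8, 246.3 and 251.5 CPM and WT contralateral ones 384.1, 537.6 and 925.0 CPM. The occluded side was lower in 6 of 6 mice without overlap within either genotype, and all KO ipsilateral libraries stood above all WT ipsilateral ones. Cspg5 fell by 1.51 ± 0.30 in WT mice (edgeR adjusted p = 0.00658), 2.85-fold, and the call held in all 9 leave-one-out fits. In KO mice the difference was -0.47 ± 0.30 (edgeR adjusted p = 0.321). Ipsilaterally Cspg5 was 1.60 ± 0.30 higher in KO than in WT (edgeR adjusted p = 0.0137), 3.03-fold, which was lost without mice 295, 297, 298 or 300 or the ipsilateral libraries of mice 297 or 298 (0.0518 to 0.0886). Contralaterally it differed by 0.56 ± 0.30 (edgeR adjusted p = 0.411). Per 1000 TPM of astrocyte markers it was at 12.5 to 17.4 TPM in KO ipsilateral and 7.88 to 12.8 TPM in WT ipsilateral libraries, a narrow overlap.

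Cspg4 codes for NG2, a transmembrane proteoglycan of oligodendrocyte precursors and pericytes rather than astrocytes. It had 65.0, 41.7 and 46.5 CPM in KO ipsilateral and 62.7, 45.4 and 51.9 CPM in KO contralateral libraries. WT ipsilateral libraries had 26.4, 25.1 and 25.7 CPM and WT contralateral ones 33.5, 44.5 and 38.8 CPM. Every KO library stood above every WT library of the same side. Cspg4 was 0.99 ± 0.18 higher in KO than in WT ipsilaterally (edgeR adjusted p = 0.0128), 1.98-fold, lost without mice 295, 297 or 300 or the ipsilateral library of mouse 297 (0.05 to 0.0898), in a fit of these groups alone (0.0569), and in TPM with a pseudocount of 1 (0.0509) or with no filter (0.0771). In WT mice it fell by 0.60 ± 0.18 (edgeR adjusted p = 0.0406), a call that was lost in 8 of 9 leave-one-out fits (0.0508 to 0.269) and stood only without the contralateral library of mouse 296 (0.0274). It was also lost with no filter (0.0676), in a fit of these groups alone (0.0665), and in TPM (0.117 to 0.168). In KO mice the difference was -0.06 ± 0.18 (edgeR adjusted p = 0.851). Contralaterally KO and WT differed by 0.45 ± 0.18 (edgeR adjusted p = 0.283). Mural markers were lower in WT ipsilateral libraries as given above. Per 1000 TPM of these markers Cspg4 was at 14.1 to 15.6 TPM in KO ipsilateral and 9.97 to 14 TPM in WT ipsilateral libraries. Cspg4 was at 27 to 40.9 TPM per 1000 TPM of oligodendrocyte precursor markers in KO and 12.1 to 17.2 TPM in WT ipsilateral libraries. On both marker scales KO stood above WT without overlap, narrowly for mural markers, and did so contralaterally as well. These ratios were not tested.

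Among the 6 proteoglycans the mix changed with the side as well as the amount. Their summed level was 1101 to 1728 TPM in KO ipsilateral and 2116 to 2437 TPM in KO contralateral libraries, and 510.7 to 586.7 TPM in WT ipsilateral against 1306 to 2003 TPM in WT contralateral libraries. Bcan made up 62.9 to 70.4% of this sum in KO ipsilateral and 75.0 to 76.3% in KO contralateral libraries, and 64.0 to 76.6% and 77.7 to 84.9% in WT. Ncan made up 12.7 to 18.9% in KO ipsilateral and 8.91 to 9.57% in KO contralateral libraries, and 10 to 17.5% and 4.41 to 7.61% in WT. The ratio of Bcan to Ncan was 3.33 to 5.54 in KO ipsilateral against 7.84 to 8.56 in KO contralateral libraries, and 3.65 to 7.63 in WT ipsilateral against 10.2 to 19.3 in WT contralateral ones. A ratio within a library does not depend on scaling, and it was lower on the occluded side in each genotype without overlap.

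Tnc codes for tenascin-C, a hexameric matrix glycoprotein that is low in most of the adult brain and induced by injury. KO ipsilateral libraries of mice 295, 298 and 300 had 176.7, 51.6 and 380.1 CPM, against 23.8, 12.6 and 11.9 CPM in their contralateral ones. WT ipsilateral libraries of mice 296, 297 and 474 had 83.9, 166.5 and 270.9 CPM, against 6.87, 8.81 and 8.35 CPM contralaterally. The sides were far apart in all mice, and the ipsilateral libraries of each genotype spread widely among themselves. Tnc rose by 3.66 ± 0.64 on the log2 scale in KO mice (edgeR adjusted p = 0.0123), 12.6-fold, and by 4.44 ± 0.67 in WT mice (edgeR adjusted p = 0.00209), 21.7-fold. The WT call held in all 9 leave-one-out fits. The KO call was lost without mice 295 or 300 or the contralateral libraries of mice 298 or 300 (edgeR adjusted p = 0.0707 to 0.149), with values of 2.62 to 4.14 over the 9 fits. Without the ipsilateral library of mouse 300, which stood apart, Tnc was 2.81 higher in KO mice (edgeR adjusted p = 0.0321) and differed by -0.64 between KO and WT ipsilaterally (0.537). KO and WT differed by 0.22 ± 0.57 ipsilaterally (edgeR adjusted p = 0.866; 95% limits -1.09 and 1.54) and by 1.002 ± 0.624 contralaterally (0.48), where the KO libraries stood above the WT ones. Per 1000 TPM of astrocyte markers Tnc was at 1.38 to 10.7 TPM in KO ipsilateral against 0.309 to 0.729 TPM in KO contralateral libraries. In WT it was at 5.68 to 14.9 TPM ipsilaterally against 0.253 to 0.346 TPM contralaterally.

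Tnr codes for tenascin-R, the trimeric tenascin of perineuronal nets, made mainly by oligodendrocyte lineage cells. It had 25.2, 41.4 and 18.7 CPM in KO ipsilateral and 40.1, 67.9 and 50.03 CPM in KO contralateral libraries. WT ipsilateral libraries had 21.8, 14.4 and 37.5 CPM and WT contralateral ones 25.9, 50.4 and 22.2 CPM. The groups overlapped in every comparison, and mouse 474 was higher ipsilaterally where the other 5 mice were lower. None of these comparisons passed with all libraries, the side differences being -0.89 ± 0.40 in KO mice (edgeR adjusted p = 0.187) and -0.42 ± 0.41 in WT mice (0.499). Over both genotypes Tnr was at -0.65 (edgeR adjusted p = 0.0986), and it passed without mouse 474 (-0.98; 0.0257) or its ipsilateral library (-0.87; 0.0318). KO and WT differed by 0.21 ± 0.41 ipsilaterally (edgeR adjusted p = 0.815) and by 0.68 ± 0.40 contralaterally (0.458). The ratio of Tnc to Tnr in TPM was 2.07 to 33.6 in KO ipsilateral against 0.308 to 0.983 in KO contralateral libraries, and 6.37 to 19.1 in WT ipsilateral against 0.289 to 0.622 in WT contralateral ones.

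**Figure D4:**
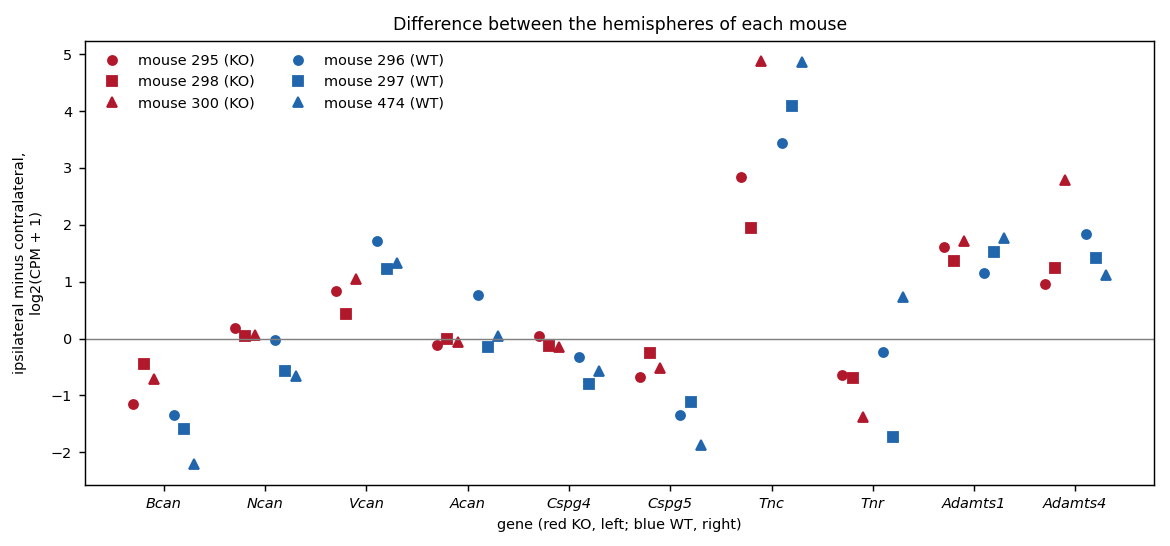
Ipsilateral minus contralateral log2(CPM + 1) of each member in each mouse, with KO mice in red on the left and WT mice in blue on the right of each gene. Tnc, Vcan, Adamts1 and Adamts4 lie above 0 in 6 of 6 mice, Bcan and Cspg5 lie below 0 in 6 of 6, and Ncan lies at or just above 0 in KO mice and below 0 in WT mice.

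Adamts1 codes for a secreted aggrecanase also known as an inhibitor of angiogenesis. KO ipsilateral libraries had 541.7, 433.1 and 668.3 CPM, against 177.5, 167.3 and 203.1 CPM contralaterally. WT ipsilateral libraries had 1022, 738.8 and 667.1 CPM, against 460.2, 255.9 and 195.3 CPM contralaterally. The occluded side was higher in 6 of 6 mice with no overlap within a genotype. Adamts1 rose by 1.58 ± 0.29 in KO mice (edgeR adjusted p = 0.0154), 3-fold, and by 1.41 ± 0.29 in WT mice (edgeR adjusted p = 0.00755), 2.66-fold. The KO call was lost without mice 295 or 300 or any 1 of the 3 contralateral libraries (edgeR adjusted p = 0.0621 to 0.15), but not without the ipsilateral library of mouse 300 (1.40; 0.0486), and the WT call without mouse 297 (0.0755). KO and WT differed by -0.56 ± 0.29 ipsilaterally (edgeR adjusted p = 0.287) and by -0.73 ± 0.29 contralaterally (0.275).

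Adamts4 codes for the aggrecanase that is known to cut brevican and versican in brain and is also made by oligodendrocytes. KO ipsilateral libraries had 128.1, 107.0 and 250.8 CPM, against 65.2, 44.6 and 35.6 CPM contralaterally. WT ipsilateral libraries had 229.8, 312.2 and 252.7 CPM, against 63.8, 116.0 and 115.7 CPM contralaterally. Again the sides did not overlap in either genotype, and the KO ipsilateral library of mouse 300 stood near the WT ones. Adamts4 rose by 1.74 ± 0.34 in KO mice (edgeR adjusted p = 0.0176), 3.34-fold, and by 1.43 ± 0.34 in WT mice (edgeR adjusted p = 0.0141), 2.69-fold. The KO call was lost without mice 295 or 300, the ipsilateral library of mouse 300, or the contralateral libraries of mice 298 or 300 (edgeR adjusted p = 0.0585 to 0.206), and in unfiltered TPM (0.0509). The WT call was lost without mice 297 or 474 or the ipsilateral library of mouse 297 (0.0553 to 0.0959). KO and WT differed by -0.71 ± 0.33 ipsilaterally (edgeR adjusted p = 0.242) and by -1.02 ± 0.34 contralaterally (0.192). Relative to 1000 TPM of astrocyte markers Adamts4 was at 4.62 to 11.4 TPM in KO ipsilateral and 22.4 to 33.9 TPM in WT ipsilateral libraries. Contralaterally it was at 1.49 to 3.23 TPM in KO and 4.39 to 7.36 TPM in WT. On this scale KO and WT did not overlap on either side, as for Adamts1, which was not tested. Per 1000 TPM of oligodendrocyte markers Adamts4 was at 8.86 to 12.6 TPM in KO ipsilateral against 5.58 to 6.95 TPM in KO contralateral libraries, and at 11.1 to 15.1 TPM in WT ipsilateral against 3.19 to 5.4 TPM in WT contralateral ones. On the oligodendrocyte scale KO and WT overlapped ipsilaterally. Contralaterally KO stood above WT there, the reverse of the astrocyte scale.

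The third comparison asks how KO and WT differed in the occluded hemisphere, and the fourth how they differed in the opposite one. Ipsilaterally 4 of 9 members were higher in KO and none was lower, these being Bcan, Ncan, Cspg4 and Cspg5. Of all genes tested 6.31% passed there, 4.33% of all genes tested being higher in KO, and the medians were 0.22 for the members and 0.02 for all genes. The KO and WT libraries of these 4 genes did not overlap, which was so for 23.9% of all genes tested, 13.7% higher and 10.1% lower in KO. Without mouse 297, or without its ipsilateral library, none of the 9 passed. Of all genes 0 passed in edgeR without this mouse and 65 without the library, against 983 with all libraries. Astrocyte markers were also higher in KO than in WT ipsilateral libraries, as given above, and their part in these differences was not tested. Contralaterally 0 of 9 members passed in edgeR and 0 in DESeq2, 4 having an unadjusted p under 0.05 (Ncan and Cspg4 higher, Adamts1 and Adamts4 lower in KO), as did 2230 of all 15571 genes, and where 1.5% of all genes passed, 0.0835% higher and 1.41% lower. Ncan, Vcan, Cspg4 and Tnc were higher in every KO than in every WT contralateral library, where 24.5% of all genes did not overlap, 11% being higher in KO.

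The last comparison asks whether the response to the occlusion differed between KO and WT. The interaction was 0.99 ± 0.30 for Bcan, 1.04 ± 0.42 for Cspg5 and -0.70 ± 0.32 for Vcan, the 3 members with an unadjusted p under 0.05, and each had an edgeR adjusted p of 0.948. Each of these differences is in the direction of a smaller response in KO mice. Over all genes 0 passed in edgeR, 763 had an unadjusted p under 0.05, and 7 passed in DESeq2, none of them a member. For Tnc the interaction was -0.78 ± 0.84 (edgeR adjusted p = 0.965), for Adamts1 0.17 ± 0.41 (0.989) and for Adamts4 0.31 ± 0.47 (0.974). A call made in WT mice and not in KO mice is thus not shown to differ between them.

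**Figure D5:**
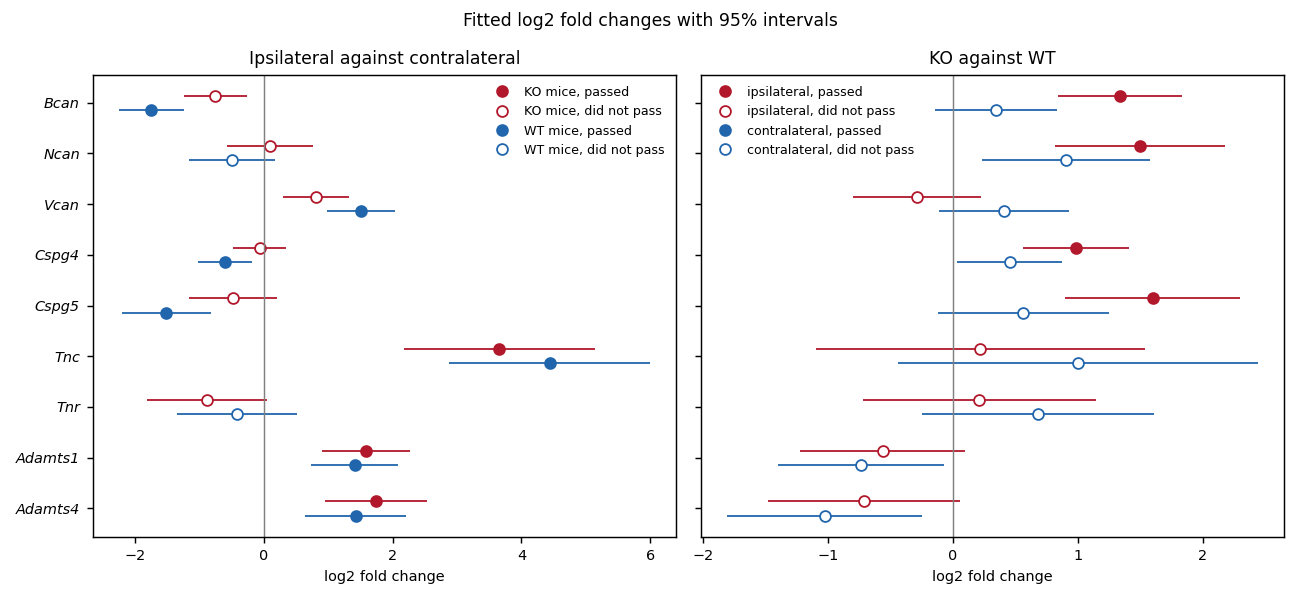
Fitted log2 fold changes of the 9 members tested with approximate 95% intervals: ipsilateral against contralateral (left; KO red, WT blue) and KO against WT (right; ipsilateral red, contralateral blue). Filled points passed at an adjusted p of 0.05. The side differences of KO and WT share their direction for 8 of the 9 genes, Ncan being the exception, and the filled points on the right are Bcan, Ncan, Cspg4 and Cspg5 ipsilaterally.

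Other genes of the same matrix were described from 5 lists. Of 21 genes that build chondroitin sulfate chains, in WT mice 1 rose and 3 fell, where 19.2% of all genes passed, the sulfotransferase gene Chst12 (-1.07 ± 0.14; edgeR adjusted p = 0.00131), Csgalnact1 (-0.93 ± 0.23; 0.0171) and B4galt7 (-0.50 ± 0.14; 0.029) against Chst11 (0.45 ± 0.13; 0.0348). In KO mice 0 of 21 passed in edgeR, where 6.29% of all genes passed. Ipsilaterally 3 of 21 were higher in KO than in WT, namely Xylt1, which starts the chain (0.91 ± 0.20; edgeR adjusted p = 0.0222), the polymerase gene Chsy1 (0.58 ± 0.12; 0.0174) and Csgalnact1, which adds the first chain-specific sugar (1 ± 0.231; 0.0271). Of all genes tested 4.33% were higher in KO there. Xylt1 was also the 1 gene of the list that was higher in KO contralaterally (0.97 ± 0.20; edgeR adjusted p = 0.0331), where 0.0835% of all genes were higher. The median of this list was 0.09 in WT mice, 0.13 in KO mice and 0.21 for KO against WT ipsilaterally.

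Hyaluronan is the backbone that lecticans bind, and link proteins (Hapln) fasten them to it. Of 12 such genes tested 2 rose and 2 fell in WT mice, where 9.61% of all genes passed higher and 9.54% lower. The share of all genes that passed was 6.29% in KO mice, and 6.31% ipsilaterally and 1.5% contralaterally between KO and WT. Cd44, a hyaluronan receptor, had 195 ± 54.7 CPM in WT ipsilateral and 36.7 ± 23.3 CPM in WT contralateral libraries (SD, n = 3 each; 2.41 ± 0.48; edgeR adjusted p = 0.00642), and the hyaluronidase gene Hyal1 rose by 1.36 ± 0.21 (0.00219). The link protein genes Hapln1 (-1.68 ± 0.31; edgeR adjusted p = 0.00432) and Hapln3 (-1.24 ± 0.33; 0.0216) fell. In KO mice Cd44 alone passed, at 150 ± 65.2 CPM ipsilaterally and 20 ± 8.73 CPM contralaterally (2.90 ± 0.49; edgeR adjusted p = 0.0109). Ipsilaterally Hapln1 was 1.20 ± 0.30 higher in KO than in WT (edgeR adjusted p = 0.0393), while Hyal1 (-0.81 ± 0.21; 0.0393) and Hapln2 (-1.72 ± 0.24; 0.00659) were lower. Hapln2, a link protein gene of oligodendrocytes, was also lower contralaterally (-2.06 ± 0.24; edgeR adjusted p = 0.00721), as were the oligodendrocyte markers. The second gene lower in KO contralaterally was Tnfaip6 (-1.31 ± 0.23; edgeR adjusted p = 0.0168), which codes for a hyaluronan-binding protein.

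Of 26 other tenascin, Adamts and Timp genes tested, 5 rose and 3 fell in WT mice and 3 rose and 1 fell in KO mice, where 19.2% and 6.29% of all genes passed. The further aggrecanase gene Adamts5 rose by 2.09 ± 0.44 in KO mice (edgeR adjusted p = 0.0219) and by 2.21 ± 0.44 in WT mice (0.00655), and Adamts9 rose by 2.15 ± 0.54 (0.0394) and by 2.18 ± 0.54 (0.0169). Adamts10 fell by 0.60 ± 0.15 in KO mice (edgeR adjusted p = 0.0345) and by 1.05 ± 0.15 in WT mice (0.00153). Timp4, a metalloprotease inhibitor gene, fell by 1.12 ± 0.21 in WT mice (edgeR adjusted p = 0.00536) and was 0.89 ± 0.21 higher in KO than in WT ipsilaterally (0.031). Adamts10 was also 0.65 ± 0.15 higher in KO there (edgeR adjusted p = 0.0258), and Adamtsl4 was lower (-1.26 ± 0.26; 0.0181). Tnn, which codes for tenascin-N, rose in KO mice (edgeR adjusted p = 0.0183) at a low level, 2.92 ± 1.53 CPM ipsilaterally and 0.112 ± 0.0993 CPM contralaterally (SD, n = 3 each).

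Of 23 other proteoglycan genes 3 rose and 6 fell in WT mice (19.2% of all genes passed) and 2 rose in KO mice (6.29%), serglycin (Srgn, 1.22 ± 0.25; edgeR adjusted p = 0.0199) and syndecan-1 (Sdc1, 1.99 ± 0.47; 0.0307). Among the falls in WT mice were the glypican gene Gpc5 (-1.20 ± 0.19; edgeR adjusted p = 0.00252), Spock2 (-1.26 ± 0.26; 0.00694), the syndecan gene Sdc2 (-0.79 ± 0.16; 0.00766) and Fmod (-1.61 ± 0.35; 0.00991). Ipsilaterally 4 were higher in KO than in WT, among them Sdc3 (0.95 ± 0.16; edgeR adjusted p = 0.0087), Gpc5 (1.02 ± 0.19; 0.0138) and Sdc2 (0.79 ± 0.16; 0.019), and 2 were lower, among them Spock3 (-1.53 ± 0.26; 0.00931). Of all genes tested 4.33% were higher and 1.98% lower in KO there. Contralaterally Spock3 (-1.64 ± 0.26; edgeR adjusted p = 0.0131) and Spock1 (-2.53 ± 0.51; 0.0314) were lower in KO, as were 1.41% of all genes. Of 12 matrix receptor genes 3 rose in WT mice and 2 in KO mice, where 9.61% and 5.45% of all genes passed higher. Tlr4, which tenascin-C is known to activate, rose by 1.14 ± 0.23 in KO mice (edgeR adjusted p = 0.018) and 1.32 ± 0.23 in WT mice (0.00336). The integrin gene Itgb1 rose by 0.63 ± 0.16 in KO mice (edgeR adjusted p = 0.0398) and 0.69 ± 0.16 in WT mice (0.0132), and Itgb3 by 1.02 ± 0.31 in WT mice (0.038). Ptprs, a receptor for chondroitin sulfate chains, was 0.50 ± 0.13 higher in KO than in WT ipsilaterally (edgeR adjusted p = 0.0415). It was the 1 receptor gene that passed there, where 6.31% of all genes passed.

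For each member the 3 genes with the most similar log2 CPM over the 12 libraries were listed among 12550 genes. These correlations describe likeness only, since the libraries come from 6 mice in 4 groups that differ in many genes. Bcan was most like Fbxo44, Chst1 and Grin2c (Pearson r of 0.993, 0.993 and 0.992), and Cspg5 most like Btbd17, Vegfa and Gpr37l1 (0.995, 0.993 and 0.991). Ncan was nearest to 2810459M11Rik, Gsap and Lasp1 (0.978, 0.971 and 0.969) and Vcan to Ddx58, Mapk1ip1l and Raph1 (0.96, 0.957 and 0.955). Cspg4 was nearest to Kank2, Notch3 and Bhlhe41 (0.936, 0.935 and 0.931), of which Notch3 is a mural cell marker. Tnc was nearest to G3bp1, Calu and Myh9 (0.984, 0.971 and 0.97), Tnr to Hrk, Unc80 and Ccdc138 (0.985, 0.981 and 0.976), Adamts1 to Mcl1, Etf1 and Eif4g1 (0.995, 0.992 and 0.987) and Adamts4 to Dlg1, Fkbp1a and Ptp4a1 (0.972, 0.967 and 0.963).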

How the data were processed

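Counts of reads per gene (deposited as expression values, whole numbers per the file headers and values) and deposited TPM, per the file headers, were read from 1 table of 48709 genes per library. The submitters' processing notes name mm10 as build; aligner, counter and strand setting are not given in the sources. Of the gene IDs 48349 were found in GENCODE M21, which gave positions. Counts were fitted in R 4.3.3 with edgeR 4.0.16 (filterByExpr with a minimum count of 10, which left 15571 genes; TMM scaling; robust quasi-likelihood fit of 4 groups over all 12 libraries, 8 residual degrees of freedom). Adjustment followed Benjamini-Hochberg across every gene tested, with calls at 0.05. The SE is the log2 fold change divided by the square root of F. Intervals use 8 degrees of freedom and are approximate. CPM are counts over the TMM-scaled library size, and log2 CPM for likeness used a prior count of 2 and genes with a mean log2 CPM of at least 2.

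The members and gene lists were chosen with earlier results of these data known. Named were all members, up to 4 genes per list and comparison with the smallest adjusted p among those that passed, genes needed to check the samples, and for each member the 3 most similar genes; a few of those named per list are left out for length. Ratios to marker sums, and the GC and TATA motifs, were added after values were seen. Alternatives were DESeq2 1.42.0, RLE scaling, other filters, only the groups compared, limma 3.58.1 on log2(TPM + 1) or log2(TPM + 0.1), the mouse as a block, and each library or mouse left out. The animal number in the titles pairs the hemispheres; after removing group means these correlated at 0.39, 0.5 and 0.2 in mice 295, 298 and 300 and at 0.7, -0.04 and 0.44 in mice 296, 297 and 474. Pairs of libraries within a group differed by 11.3 to 70.6 times counting noise, so none were duplicates. Without the strand setting, reads of genes that overlap on opposite strands cannot be told apart. The level of the targeted gene is not reported here.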

Additional observations from a re-analysis of the deposited data

Results flagged for a closer look

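Ncan was marked because its side difference ran in opposite directions in the mice of each genotype. It was higher ipsilaterally in 3 of 3 KO mice, by 0.045 to 0.178 on the log2(CPM + 1) scale, and lower in 3 of 3 WT mice, by -0.668 to -0.02. The interaction itself was 0.59 ± 0.41 (edgeR adjusted p = 0.948), so the difference did not pass the test, and in TPM the KO side difference had the opposite sign. In TPM WT mouse 296 was higher ipsilaterally as well (58.74 against 57.59). Relative to 1000 TPM of astrocyte markers, Ncan was higher ipsilaterally in every mouse of both genotypes. WT mice 296, 297 and 474 had 9.42, 11.1 and 12.7 TPM there, against 6.02, 9.66 and 11.2 TPM contralaterally. The opposite directions thus hold on the CPM scale only. Groups of 3 libraries are too small for a test of single outlying samples.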

How the results depend on the processing

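The 6 members called over both genotypes were called in all 18 leave-one-out fits and all 8 other alternatives tried for that comparison, and no member passed the interaction under any. The mouse as a replicate block gave 5 members in KO mice, as did DESeq2 (5) and only the groups compared (5); with the block 4641 genes passed in WT and 2498 in KO mice, and Cspg4 passed over both genotypes (edgeR adjusted p = 0.0148). It changed no other member's call. For KO mice 2057 genes passed in DESeq2, 1790 with only the groups compared, and 552, 534 and 193 in TPM with a pseudocount of 1, of 0.1 and with no filter. In WT mice 1579 passed with only the groups compared. For KO against WT ipsilaterally the counts were 1735 in DESeq2, 196 with only these groups and 440 in unfiltered TPM; contralaterally they were 645 in DESeq2 and 149, 140 and 91 in the 3 TPM fits. The interaction had 7 in DESeq2, 2 in TPM with a pseudocount of 0.1 and 1 unfiltered. In TPM the sign turned for Ncan in KO mice (-0.076), Tnc between ipsilateral groups (-0.13) and the interactions of Adamts1 (-0.14) and Adamts4 (-0.015, and -0.004 with a pseudocount of 0.1), none of which passed. With a library or mouse left out, members called ranged from 4 to 8 in WT mice, 0 to 5 in KO mice, 0 to 4 ipsilaterally, 0 to 1 contralaterally and 6 to 7 over both genotypes. Genes called ranged from 659 to 3610, 2 to 2282, 0 to 1351, 0 to 391 and 2812 to 5793 in the same order. Signs turned there for the interactions of Adamts1 (-0.258 to 0.363), Adamts4 (-0.38 to 0.738) and Tnr (-1.189 to 0.19), for Cspg4 in KO mice (-0.27 to 0.084), Tnr in WT mice (-1.076 to 0.302) and, ipsilaterally between KO and WT, Tnc (-0.639 to 0.718), Tnr (-0.177 to 0.679) and Vcan (-0.459 to 0.035). The cause was not tested. With 3 libraries a group, the edgeR p-values rest on the spread between libraries of a group, pooled over the 4 groups. Except with the mouse as a block, they treat the 2 hemispheres of a mouse as separate. Acan was too low to test.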
